A study of Mus musculus with 48 samples.

Results

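The Notch pathway carries signals between touching cells. A ligand of the Jagged or Delta-like family on one cell binds a Notch receptor on its neighbour, the receptor is cut by ADAM proteases and by gamma-secretase, and its intracellular part moves to the nucleus, where it joins the DNA-binding protein RBPJ and switches on repressor genes of the Hes and Hey families. In arteries, Notch1, Notch4 and Dll4 are best known from the endothelium, where they take part in arterial identity and sprouting, whereas Notch3, Notch2 and Jag1 are known for the maturation and maintenance of smooth muscle and mural cells. The expression of 10 genes of this pathway was described in the thoracic aorta: the 4 receptors Notch1, Notch2, Notch3 and Notch4, the ligands Jag1, Jag2 and Dll4, and the target genes Hes1, Hey1 and Heyl. They were taken by symbol from the table of counts, which lists 18782 genes and holds all 10, and every one of them passed the filter on low counts.

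The RNA came from wild-type C57BL/6J mice, 1 thoracic aorta and 1 library per mouse, 48 mice in all. Treated mice drank water with 0.4% β-aminopropionitrile (BAPN), an inhibitor of the enzymes that cross-link collagen and elastin, for 28 days from 3 weeks of age, and control mice (Con) drank normal water. Treated mice were grouped at the end by their aorta, into those without a lesion (NonAD) and those with dissection or aneurysm (AAD), which gave 10 FeCon, 8 FeNonAD, 9 FeAAD, 10 MaCon, 4 MaNonAD and 7 MaAAD mice (Fe, female; Ma, male). NonAD and AAD were therefore outcomes of 1 treatment, were seen only in mice that had survived the induction, and in AAD mice the RNA came from the lesioned segments.

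Levels are given as CPM, the counts scaled to a common library size, after TMM scaling of libraries of 13548003 to 17281262 counts, and a change as the log2 fold change of edgeR's quasi-likelihood test, with its standard error (SE) and a p adjusted by Benjamini and Hochberg over all 14431 genes tested. A member passed where that adjusted p was under 0.05. The lowest count of any member in any library was 47, for Dll4, and the highest was 11239, for Heyl. Markers of smooth muscle, the tissue's main cell type, were all present, with a summed level of 35527 to 62128 CPM in FeCon and 32639 to 73176 CPM in MaCon. It was lower in the AAD groups, from 15983 to 36716 CPM in FeAAD and from 14022 to 33571 CPM in MaAAD, and 11 of 11 markers fell against controls in each sex. Macrophage markers did the opposite, since 10 of 10 rose in both AAD groups, with sums of 775 to 6399 CPM in FeAAD and 1016 to 4415 CPM in MaAAD against 317 to 749 CPM in FeCon and 264 to 676 CPM in MaCon. In such bulk tissue, fewer cells of a type and less RNA per cell cannot be told apart, and the part of these shifts in the results for the Notch genes was not tested.

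Per kilobase of transcript, Heyl was by far the most abundant of the 10 genes, with a mean of 69.7 CPM per kb over the 48 libraries. Hes1 followed with 15.4, Notch2 with 12.4, Jag1 with 9.57 and Notch3 with 7.64 CPM per kb. Hey1 had 4.24 and Notch1 4.18 CPM per kb, and Notch4 (3.20), Jag2 (2.48) and Dll4 (2.01) closed the order. Heyl was above Hes1 in 47 of 48 libraries, but Hes1 was above Notch2 in only 33, and Hey1 and Notch1 did not differ beyond their spread, since Hey1 was the higher in 25 of 48. The order was not the same in every group. In FeNonAD the mean of Notch2 (13.0 CPM per kb) was above that of Hes1 (12.5), although Notch2 was the higher in 3 of 8 libraries only. In MaAAD, Notch4 (4.08 ± 1.36 CPM per kb, SD, n = 7) had the higher mean of the pair with Hey1 (3.90 ± 0.75), although it was above it in 3 of 7 libraries only. In FeAAD Notch4 also had the higher mean, at 3.78 ± 1.16 against 3.71 ± 0.89 CPM per kb (n = 9), and was above Hey1 in 5 of 9 libraries. In FeCon Notch4 lay below Hey1 at 2.77 ± 0.59 against 5.21 ± 0.81 CPM per kb (n = 10). Lengths were those of the longest coding transcript of each gene in GENCODE M21, so these levels depend on that choice of transcript.

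**Figure D1:**
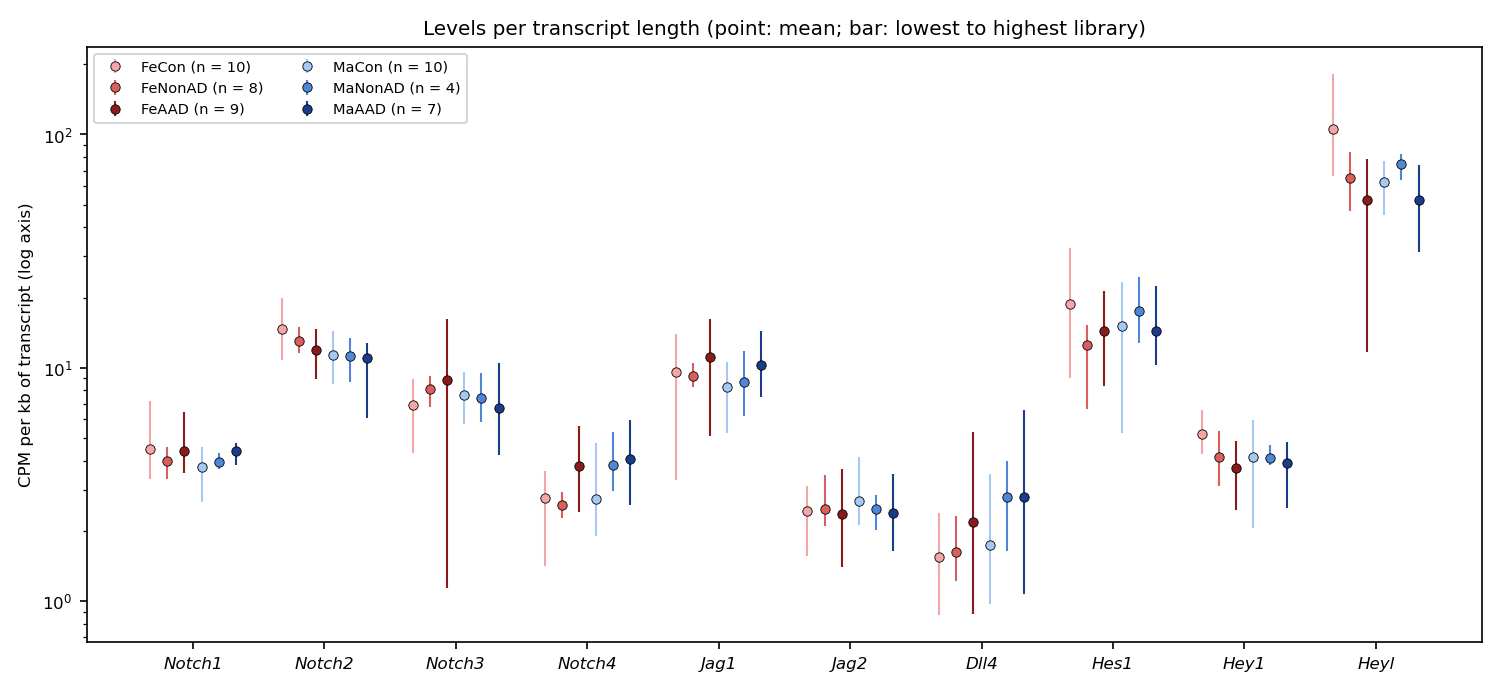
Mean level per kilobase of transcript (CPM per kb, log axis) of the 10 Notch genes in each of the 6 groups, with bars from the lowest to the highest library. Heyl lies above all other genes in every group mean, and FeCon is its highest group.

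The receptors shared their transcripts unevenly. Of the 4 receptors' summed level per kb, Notch2 made up 50.7% ± 7.16 in FeCon (SD, n = 10) and 44.4% ± 4.27 in MaCon (n = 10), and Notch3 24.1% ± 4.17 and 30.0% ± 2.00. Notch1 gave 15.7% ± 4.46 and 14.8% ± 1.93. The smallest share was that of Notch4, which was 9.56% ± 1.60 in FeCon, 9.36% ± 0.65 in FeNonAD (n = 8) and 13.1% ± 2.27 in FeAAD (n = 9), and 10.7% ± 2.67 in MaCon, 14.6% ± 2.57 in MaNonAD (n = 4) and 15.5% ± 4.76 in MaAAD (n = 7). Among the 3 ligands Jag1 held the largest share in every group, between 61.4% ± 8.51 in MaNonAD and 71.2% ± 6.25 in FeAAD. Heyl did so among the 3 targets, between 70.6% ± 15.9 in FeAAD and 81.1% ± 4.74 in FeCon. These shares are ratios within a library and were not tested.

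**Figure D2:**
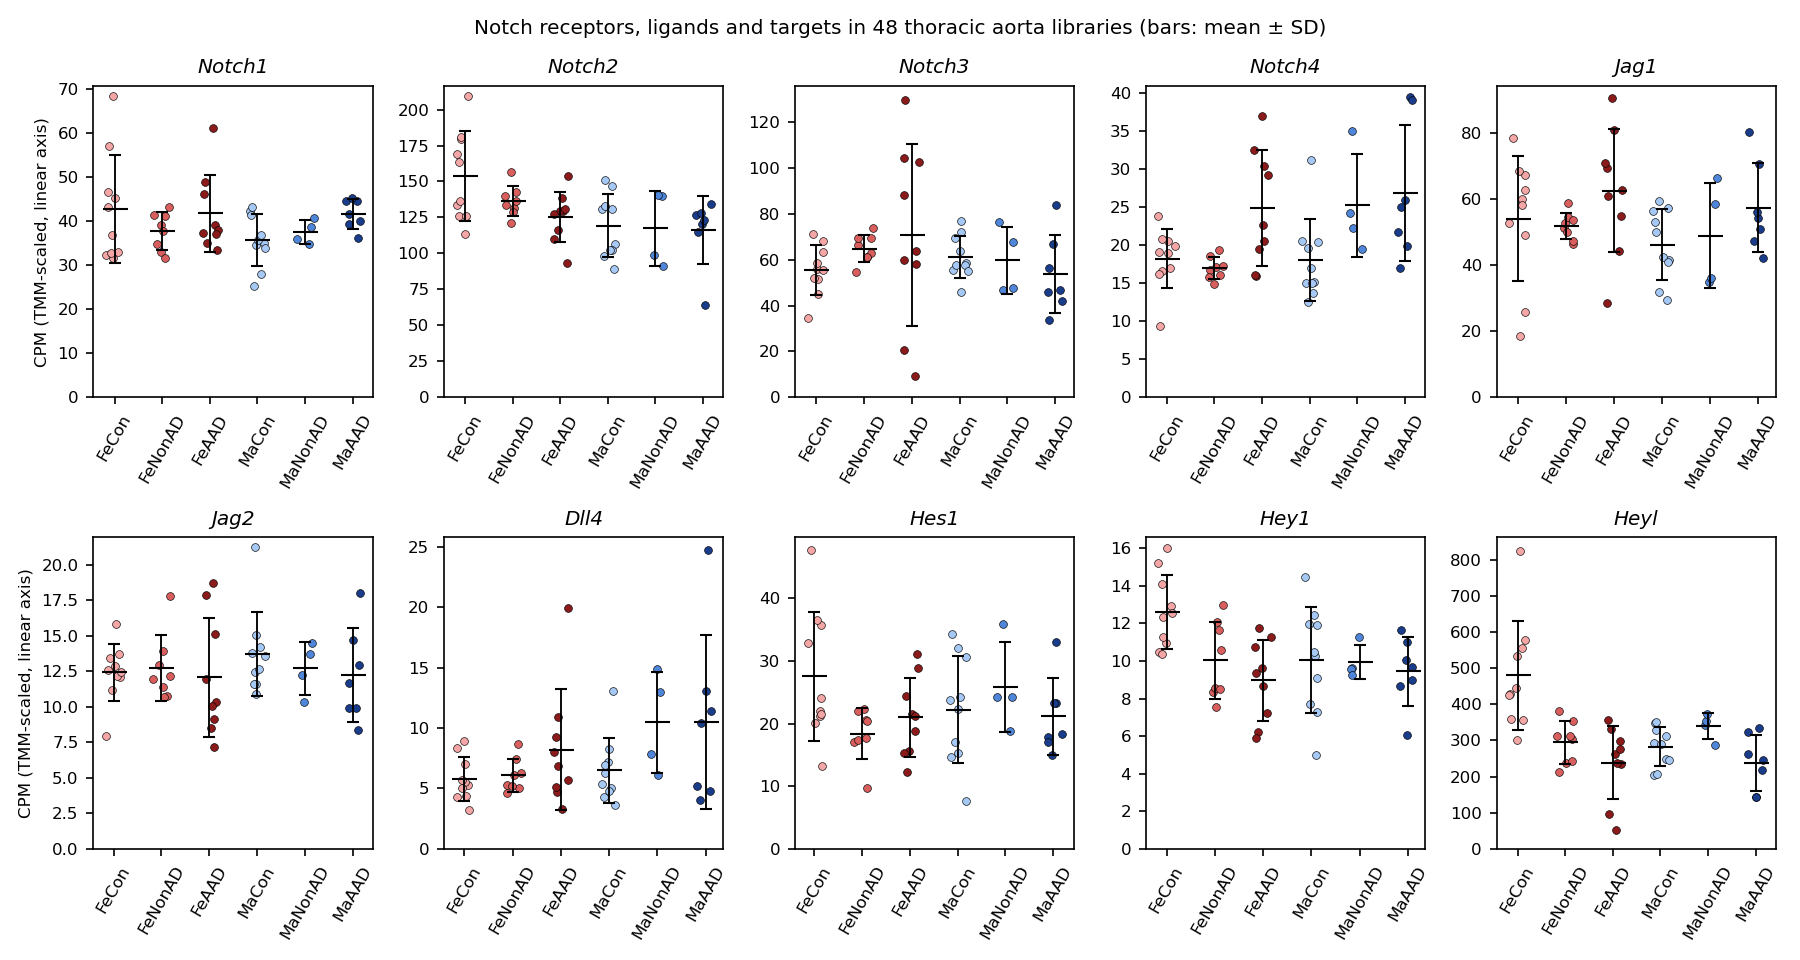
Level of each of the 10 genes in CPM (linear axes from 0), with 1 point per library, and the mean ± SD of each group. Notch4 sits higher in both AAD groups than in the controls, Heyl is highest in FeCon, and 2 FeAAD libraries lie far below the others for Notch3 and Heyl.

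The first question was how these genes differed between aortas with dissection or aneurysm and control aortas. In females 4 of the 10 passed the test, Notch4 as higher and Notch2, Hey1 and Heyl as lower in FeAAD than in FeCon, and in males 1 of 10 did, Notch4 as higher in MaAAD than in MaCon. The share of all genes tested that passed was 44.4% in females (23.8% higher, 20.6% lower) and 35% in males (18.9% higher), so the members' counts were near the background in females and below it in males. Only Heyl in females also reached an absolute log2 fold change of 1, as 12.7% of all genes did in that comparison (2.78% lower). The median change over the 10 members was -0.04 on the log2 scale in females and -0.06 in males, beside 0.00 and -0.03 over all genes.

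**Figure D3:**
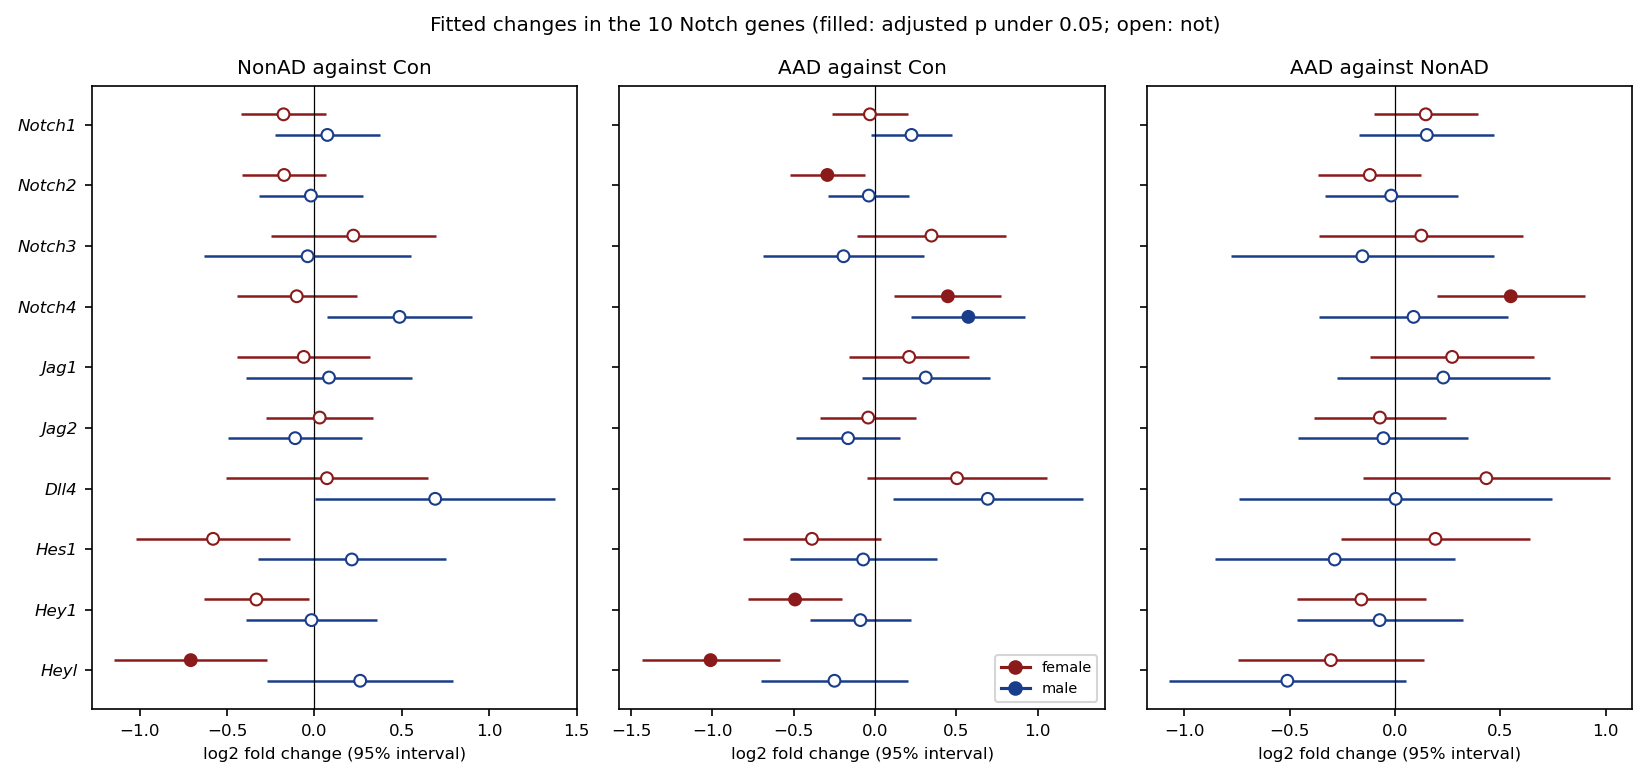
Fitted log2 fold change of each gene with its 95% interval in the 3 within-sex comparisons, females in red and males in blue. Filled points passed at an adjusted p under 0.05. Notch4 is filled for AAD against Con in both sexes, and the other filled points are all female.

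Notch4, the receptor most restricted to endothelial cells, was the one member that rose in AAD in both sexes. In FeCon its level ran from 9.34 over a median of 19.1 to 23.8 CPM, in FeNonAD from 15.0 over 16.9 to 19.4 CPM, and in FeAAD from 15.9 over 22.7 to 37.0 CPM. In MaCon it ran from 12.5 over 16.1 to 31.3 CPM and in MaAAD from 17.1 over 25.1 to 39.5 CPM, and the 4 MaNonAD libraries had 35.0, 19.5, 24.3 and 22.3 CPM. The groups overlapped, but 4 of 9 FeAAD libraries were above all of FeCon and 7 of 9 above all of FeNonAD, and 7 of 7 MaAAD libraries were above the median of MaCon.

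The fitted rise of Notch4 against controls was 0.45 (SE 0.17, edgeR adjusted p = 0.0271, 1.36-fold) in females and 0.57 (SE 0.18, edgeR adjusted p = 0.00993, 1.49-fold) in males, and the difference between the sexes in this response did not pass (0.13, 95% interval -0.36 to 0.61). The female rise no longer passed without FeCon2, the lowest FeCon library (edgeR adjusted p = 0.0594), or without FeAAD1 (0.0535), FeAAD4 (0.0601) or FeAAD6 (0.0840). The male rise passed without any single library, with adjusted p up to 0.0479. Endothelial markers did not move as 1 block beside it: Cdh5 (VE-cadherin) and Tie1 (an angiopoietin co-receptor) rose by 0.42 and 0.44 in FeAAD and by 0.57 and 0.50 in MaAAD, Emcn (endomucin) rose by 0.52 in MaAAD, while Pecam1 and Nos3 fell by 0.70 and 0.69 in FeAAD, and the remaining 11 of 15 in females and 12 of 15 in males did not pass. Their summed level ran from 520 to 1435 CPM in FeAAD and from 770 to 1477 CPM in MaAAD, against 848 to 1591 CPM in FeCon and 836 to 1257 CPM in MaCon. In MaAAD against MaCon, Pdgfrb rose and Abcc9 fell among 6 pericyte markers, and Lum and Pdgfra rose among 7 fibroblast markers. Cd79a rose among 7 lymphocyte markers and Mbp among 5 Schwann markers, and Ryr2 fell among 10 heart muscle markers. The part of these cell types in the rise of Notch4 was not tested.

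The other receptors had smaller differences. Notch2, which works beside Notch3 in smooth muscle, ran from 113 over a median of 149.7 to 209 CPM in FeCon and from 93.6 over 129 to 154 CPM in FeAAD, so the groups overlapped widely, with 8 of 9 FeAAD libraries below the FeCon median. It fell by 0.29 (SE 0.12, edgeR adjusted p = 0.0404). The call was at the edge of the threshold: it was lost with no filter on low counts (adjusted p = 0.0532), with only the compared groups in the fit (0.0699), and when any 1 of 11 libraries was left out (FeCon1, FeCon4, FeCon6, FeCon8, FeCon10, FeAAD1, FeAAD2, FeAAD5, FeAAD6, FeAAD7 and FeAAD9, with adjusted p from 0.0510 to 0.105). In males Notch2 had a change of -0.04 (95% interval -0.29 to 0.21), with 64.2 CPM in MaAAD1 and 115 to 134 CPM in the other 6 MaAAD libraries.

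Notch3, the receptor of mural cells, varied most among the receptors in FeAAD. It had 9.11 CPM in FeAAD5 and 20.8 CPM in FeAAD9, below every other library of the study, but 88.0 to 129.7 CPM in FeAAD1, FeAAD4, FeAAD6 and FeAAD7, above every FeCon library (34.4 to 71.4 CPM). The group was spread to both sides of the controls, and its fitted change of 0.35 (95% interval -0.11 to 0.81) did not pass. Without FeAAD5 it did, at 0.50 (SE 0.18, edgeR adjusted p = 0.0288). In MaAAD Notch3 ran from 33.8 over 46.8 to 84.1 CPM against 46.0 over 58.2 to 76.7 CPM in MaCon, a change of -0.19 (95% interval -0.69 to 0.30). Notch1, the receptor of the endothelium and many other cells, ran from 33.4 to 61.0 CPM in FeAAD and from 31.5 to 68.5 CPM in FeCon and changed by -0.03 (95% interval -0.26 to 0.20). In MaAAD it was above the MaCon median in 7 of 7 libraries, with a value of 0.22 that did not pass (95% interval -0.02 to 0.47).

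No ligand passed in either sex. Dll4, the Delta-like ligand of arterial endothelium and sprouting tip cells, came nearest. It ran from 3.66 over a median of 5.82 to 13.1 CPM in MaCon, from 4.03 over 10.4 to 24.7 CPM in MaAAD, from 3.25 over 5.41 to 8.92 CPM in FeCon and from 3.28 over 6.88 to 20.0 CPM in FeAAD. The highest library of each AAD group was MaAAD1 with 24.7 CPM and FeAAD6 with 20.0 CPM, above every other library of the study. The fitted difference was 0.69 in males (SE 0.30, edgeR adjusted p = 0.0648) and 0.50 in females (SE 0.28, edgeR adjusted p = 0.146).

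The male value depended on single libraries in both directions. It passed without MaCon2 (adjusted p = 0.0190), MaAAD2 (0.0256), MaAAD3 (0.0243) or MaAAD7 (0.0384), and was 0.34 without MaAAD1 (adjusted p = 0.369). MaAAD1 had the highest adipocyte marker sum (3012 CPM) and the lowest smooth muscle marker sum (14022 CPM) of all 48 libraries, and MaCon2, the highest of its group for Dll4, Notch4 and Jag2, ranked 3 of 48 for the adipocyte sum, with 1825 CPM. It also had the highest lymphocyte marker sum of all 48 libraries (103 CPM, with 28.2 CPM in the next) and the highest cell division sum of MaCon (34.6 CPM). The part of adipose tissue, lymphocytes or dividing cells in these values was not tested. Jag1, the main Notch ligand between smooth muscle cells, ran from 28.6 to 90.6 CPM in FeAAD and from 18.5 to 78.4 CPM in FeCon, a change of 0.21 (95% interval -0.16 to 0.58), and changed by 0.31 in males (95% interval -0.08 to 0.71). Jag2, the other Jagged ligand found in endothelium, changed by -0.04 (95% interval -0.34 to 0.25) and -0.17 (95% interval -0.48 to 0.15).

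Heyl, the Hey-family repressor of vascular smooth muscle and pericytes, showed the largest difference of the 10 genes. It ran from 301 over a median of 436 to 823 CPM in FeCon, from 212 over 308 to 383 CPM in FeNonAD and from 52.8 over 263 to 356 CPM in FeAAD. In MaCon it ran from 204 over 292 to 349.9 CPM and in MaAAD from 142 over 245 to 335 CPM, and the 4 MaNonAD libraries had 344, 289, 353 and 372 CPM. Of the FeAAD libraries 7 of 9 lay below every FeCon library and 9 of 9 below the FeCon median, whereas in males the groups overlapped through most of their range.

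Heyl fell by 1.01 in FeAAD against FeCon (SE 0.22, edgeR adjusted p = 0.000170, 2.02-fold lower). It kept passing under all alternatives, at an adjusted p of up to 0.00744 among the other models and of up to 0.000856 with any single library left out. In males the value was -0.25 (95% interval -0.70 to 0.20), which did not pass. The sex difference in the response was 0.76 (SE 0.31, edgeR adjusted p = 0.209), so the test of the difference itself did not pass. The 2 lowest libraries, FeAAD5 (52.8 CPM) and FeAAD9 (97.2 CPM), were also the lowest for Notch3. FeAAD5 had the lowest pericyte marker sum (874 CPM) and the highest macrophage marker sum (6399 CPM) of all 48 libraries, and FeAAD9 had the lowest endothelial (520 CPM) and fibroblast (1296 CPM) sums. Without FeAAD5 the change was -0.88 and without FeAAD9 it was -0.91. Other marker lists moved in the same comparison: 2 of 6 pericyte markers fell (Abcc9 and Kcnj8), 5 of 10 heart muscle markers fell and 3 of 7 lymphocyte markers rose, while of the 7 fibroblast markers Lum rose and Pi16 fell. The heart muscle sum ran from 67.2 to 182 CPM in 9 FeCon libraries, with 728 CPM in FeCon10, and from 44.3 to 146 CPM in FeAAD. Without FeCon10 the change of Heyl was -1.03. The part of these cell types in the fall of Heyl was not tested.

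Hey1, which acts in endothelial and smooth muscle cells, also fell in females. It ran from 10.3 over 12.5 to 16.0 CPM in FeCon, from 7.53 over 9.56 to 13.0 CPM in FeNonAD and from 5.92 over 9.36 to 11.8 CPM in FeAAD, with 6 of 9 FeAAD libraries below every FeCon library. The change against FeCon was -0.49 (SE 0.15, edgeR adjusted p = 0.00598), and it passed with any single library left out (adjusted p up to 0.0173). In males it was -0.09 (95% interval -0.40 to 0.22). Hes1, the most widely used Notch target and also a target of other pathways, ran from 13.3 over 23.0 to 47.7 CPM in FeCon and from 12.3 over 21.3 to 31.2 CPM in FeAAD. Its values were -0.39 in females (95% interval -0.81 to 0.03) and -0.07 in males (95% interval -0.53 to 0.38).

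The second question was whether the genes already differed in treated mice without a lesion. In females 1 of 10 passed, Heyl, against 14.5% of all genes tested (7.66% lower). Its level fell by 0.71 in FeNonAD (SE 0.22, edgeR adjusted p = 0.0264, 1.63-fold lower), with 8 of 8 FeNonAD libraries below the FeCon median and 3 of 8 below every FeCon library. The call was lost without FeCon9 (0.58 lower, adjusted p = 0.0743), FeNonAD6 (adjusted p = 0.0556) or FeNonAD8 (adjusted p = 0.0574). FeCon9 had the highest endothelial marker sum of all 48 libraries (1591 CPM). Both other targets lay on the same side without passing: Hes1 differed by -0.58 (SE 0.22, edgeR adjusted p = 0.0728), with 9.78 to 22.3 CPM in FeNonAD, and it passed without FeCon6 (adjusted p = 0.0378). Hey1 differed by -0.33 (SE 0.15, edgeR adjusted p = 0.137). Receptors and ligands were between -0.18 and 0.22. Of the 15 endothelial markers 2 fell (Nos3 and Pecam1) and of the 11 smooth muscle markers 2 fell (Des and Lmod1) in the same comparison. The 4 cell division genes (Mki67, Top2a, Cdk1 and Ccnb1) all rose there, with a median change of 1.65 and a sum of 5.08 to 41.8 CPM in FeNonAD against 4.18 to 12.6 CPM in FeCon, and all 4 also rose in FeAAD and MaAAD against controls. The part of dividing cells in the results for the Notch genes was not tested.

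In males 0 of 10 members passed in MaNonAD against MaCon, where 0.624% of all genes did. That background of 90 genes fell to 16 without MaNonAD1, 41 without MaNonAD3, 54 without MaCon8 and 57 without MaCon7, while DESeq2 called 164 of 15364 genes and a fit of only the compared groups 274 of 13757. By DESeq2 also 0 members passed, and at an unadjusted p under 0.05 in edgeR there was 1, Notch4. Its 4 MaNonAD libraries all lay above the MaCon median, with a value of 0.49 (95% interval 0.07 to 0.90, edgeR adjusted p = 0.321). Dll4 had the widest difference, at 0.69 (95% interval 0.00 to 1.38, edgeR adjusted p = 0.430), with 14.9, 7.83, 13.0 and 6.15 CPM in the 4 libraries. Heyl had a value of 0.26 (95% interval -0.27 to 0.79) and Hes1 one of 0.21 (95% interval -0.32 to 0.75), so the intervals for the targets held both a fall and a rise. The median over the 10 members was -0.14 in females and 0.08 in males, beside 0.00 and -0.02 over all genes.

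Between treated mice with and without a lesion, 1 of 10 members passed in females, where 18.2% of all genes did (13.2% higher). That background of 2625 genes was 1492 without FeAAD5 and 1257 with only the compared groups fitted. Notch4 rose by 0.55 in FeAAD over FeNonAD (SE 0.18, edgeR adjusted p = 0.0269, 1.46-fold), a call that was lost without FeAAD6 (0.46, adjusted p = 0.0724). In the same comparison 8 of 11 smooth muscle markers fell, 10 of 10 macrophage, 4 of 4 cell division and 2 of 7 lymphocyte markers rose, as did 1 of 7 fibroblast markers (Lum), and 0 of 15 endothelial markers passed in edgeR, with 2 at an unadjusted p under 0.05. Their part in the rise of Notch4 was not tested. The other 9 members lay between -0.30 for Heyl and 0.43 for Dll4. In males 0 of 10 passed in MaAAD against MaNonAD, where 0.409% of all genes did. DESeq2 also gave 0, and no member had an unadjusted p under 0.05. The background here moved with single libraries, from 59 genes to 1342 without MaAAD1, 524 without MaNonAD1, 513 without MaAAD2, 396 without MaAAD4 and 0 without any other. DESeq2 called 781 of 14642 genes and its size factors within edgeR gave 212, while with no filter or with only the compared groups fitted 0 passed. Heyl had the widest male value, -0.51 (95% interval -1.07 to 0.05), with 7 of 7 MaAAD libraries below the MaNonAD median. FeAAD was set against both FeCon and FeNonAD and MaAAD against both MaCon and MaNonAD, so these comparisons share libraries and do not count as separate evidence.

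Male and female controls were then compared. Of the 10 members 2 passed, both lower in MaCon than in FeCon, where 14.3% of all genes passed (7.9% lower). Heyl was lower by a log2 fold change of -0.76 in males (SE 0.21, edgeR adjusted p = 0.0111), with 10 of 10 MaCon libraries below the FeCon median and 6 of 10 below every FeCon library, and it passed with any single library left out (adjusted p up to 0.0333). Of the marker lists, Nos3 was lower (-0.54) among 15 endothelial markers and Cd3g and Cd8a were higher (1.61 and 2.01) among 7 lymphocyte markers in MaCon, and no marker of the other lists passed. Their part in the difference in Heyl was not tested. Notch2 differed by -0.37 (SE 0.12, edgeR adjusted p = 0.0262), and not without MaCon6 (adjusted p = 0.0524) or FeCon4 (adjusted p = 0.0668). Notch1 (-0.26) and Hey1 (-0.33) had unadjusted p under 0.05 in the same direction and did not pass. The calls of Heyl in FeNonAD, FeAAD and MaCon and those of Notch2 in FeAAD and MaCon all rested on the same 10 FeCon libraries. They do not count as separate evidence. The mean of Heyl was 481 CPM in FeCon and between 238 and 339 CPM in the other groups. FeCon9 and FeCon7 stood apart within the female controls: they had the highest Notch1 (68.5 and 57.1 CPM) and the lowest Jag1 (25.8 and 18.5 CPM) of the group, and FeCon9 also the highest Heyl (823 CPM). Among treated mice no member passed between the sexes, either without a lesion (0 of 10, beside 0.0624% of all genes) or with one (0 of 10, beside 0.0901%).

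DESeq2 gave 0 members in these treated comparisons too. The edgeR counts at an unadjusted p under 0.05 were 2 without a lesion, Notch4 and Dll4, and 0 with one. Without a lesion Notch4 ran from 19.5 to 35.0 CPM in MaNonAD and from 15.0 to 19.4 CPM in FeNonAD (0.57, SE 0.22, edgeR adjusted p = 0.720). The sex difference in the response was tested as an interaction. For NonAD 0 of 10 members passed (0.416% of all genes), with 3 at an unadjusted p under 0.05, namely Heyl (0.97, SE 0.35, edgeR adjusted p = 0.210), Hes1 (0.79, SE 0.35, edgeR adjusted p = 0.326) and Notch4 (0.59, SE 0.28, edgeR adjusted p = 0.369). Heyl passed (adjusted p = 0.0463) where the fit held only the compared groups. The background of 60 genes was 254 without FeCon2, 144 without MaCon5 and 113 without FeCon3, lay between 17 (without MaNonAD1) and 39 without MaNonAD1, MaNonAD2, MaNonAD3, MaNonAD4, FeCon10, FeNonAD5 or FeNonAD6, and was 178 by DESeq2. For AAD 0 of 10 passed (1.34% of all genes), with 1 at an unadjusted p under 0.05, Heyl. This background of 194 genes rose to between 293 and 483 (without FeCon2) when FeCon2, FeCon3, MaCon5, MaAAD1 or FeAAD5 was left out, fell to between 108 (without FeCon10) and 125 when FeCon10, MaCon7, MaAAD2, MaAAD5 or FeAAD6 was, and was 414 by DESeq2 and 95 with only the compared groups fitted. For the step from NonAD to AAD 0 of 10 passed (0% of all genes), with 0 at an unadjusted p under 0.05. DESeq2 gave 0 members in all 3.

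The variation of members within groups was compared in pairs. After each group's mean of log2(CPM + 1) was subtracted, the 45 pairs of members had a median Pearson r of 0.28 over the 48 libraries, with 9 of 45 below 0 and the extremes 0.72 for Notch3 and Heyl and -0.34 for Notch2 and Dll4. Notch4 and Dll4, both genes of arterial endothelium, had r = 0.71 and Spearman's rho = 0.67, and Notch2 and Jag1 had r = 0.64 and rho = 0.64. For Notch3 and Heyl rho was 0.45, and FeAAD5 and FeAAD9 were the lowest libraries for both. All these values share libraries and their scaling, and they are descriptions.

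The genes most like each member, by the same correlation over the 48 libraries, are given as a description. Those most like Notch4 were Sema3g (r = 0.80), Flt1 (r = 0.74) and Kank3 (r = 0.74), those most like Dll4 were Robo4 (r = 0.84), C1qtnf9 (r = 0.83) and Ablim3 (r = 0.83), and those most like Notch1 were S1pr1 (r = 0.77), Kif26a (r = 0.72) and Prkch (r = 0.72). Those most like Notch3 were Itgbl1 (r = 0.91), Col4a4 (r = 0.88) and Col4a3 (r = 0.87), and those most like Heyl were Gli2 (r = 0.89), Tmem8b (r = 0.86) and Cbx7 (r = 0.86). Notch2 was nearest to Ndst1 (r = 0.92) and Jag1 to Pip4k2b (r = 0.88), followed for Jag1 by Nuak1 (r = 0.87) and Efnb2 (r = 0.86). Jag2 (Shank3, r = 0.71), Hes1 (Atoh8, r = 0.69) and Hey1 (Pik3ip1, r = 0.68) had no gene as near.

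Beside the marker lists, again after group means were subtracted, Heyl had r = 0.77 (rho = 0.65) with the pericyte sum, 0.68 (0.55) with the endothelial sum, 0.52 (0.50) with the smooth muscle sum and 0.52 (0.36) with the fibroblast sum. Notch3 had r = 0.72 (rho = 0.49) with the pericyte sum, 0.66 (0.40) with the fibroblast sum, 0.61 (0.42) with the endothelial sum and -0.02 (-0.30) with the smooth muscle sum. Both went against the macrophage sum, with r = -0.46 (rho = -0.21) for Heyl and -0.45 (-0.16) for Notch3, and against the cell division sum, with r = -0.41 (-0.25) and -0.41 (-0.22). Notch4 and Dll4 had r = -0.50 and -0.64 with the smooth muscle sum, 0.39 and 0.14 with the endothelial sum, and 0.40 and 0.63 with the adipocyte sum. These are descriptions over 48 libraries that share their scaling.

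**Figure D4:**
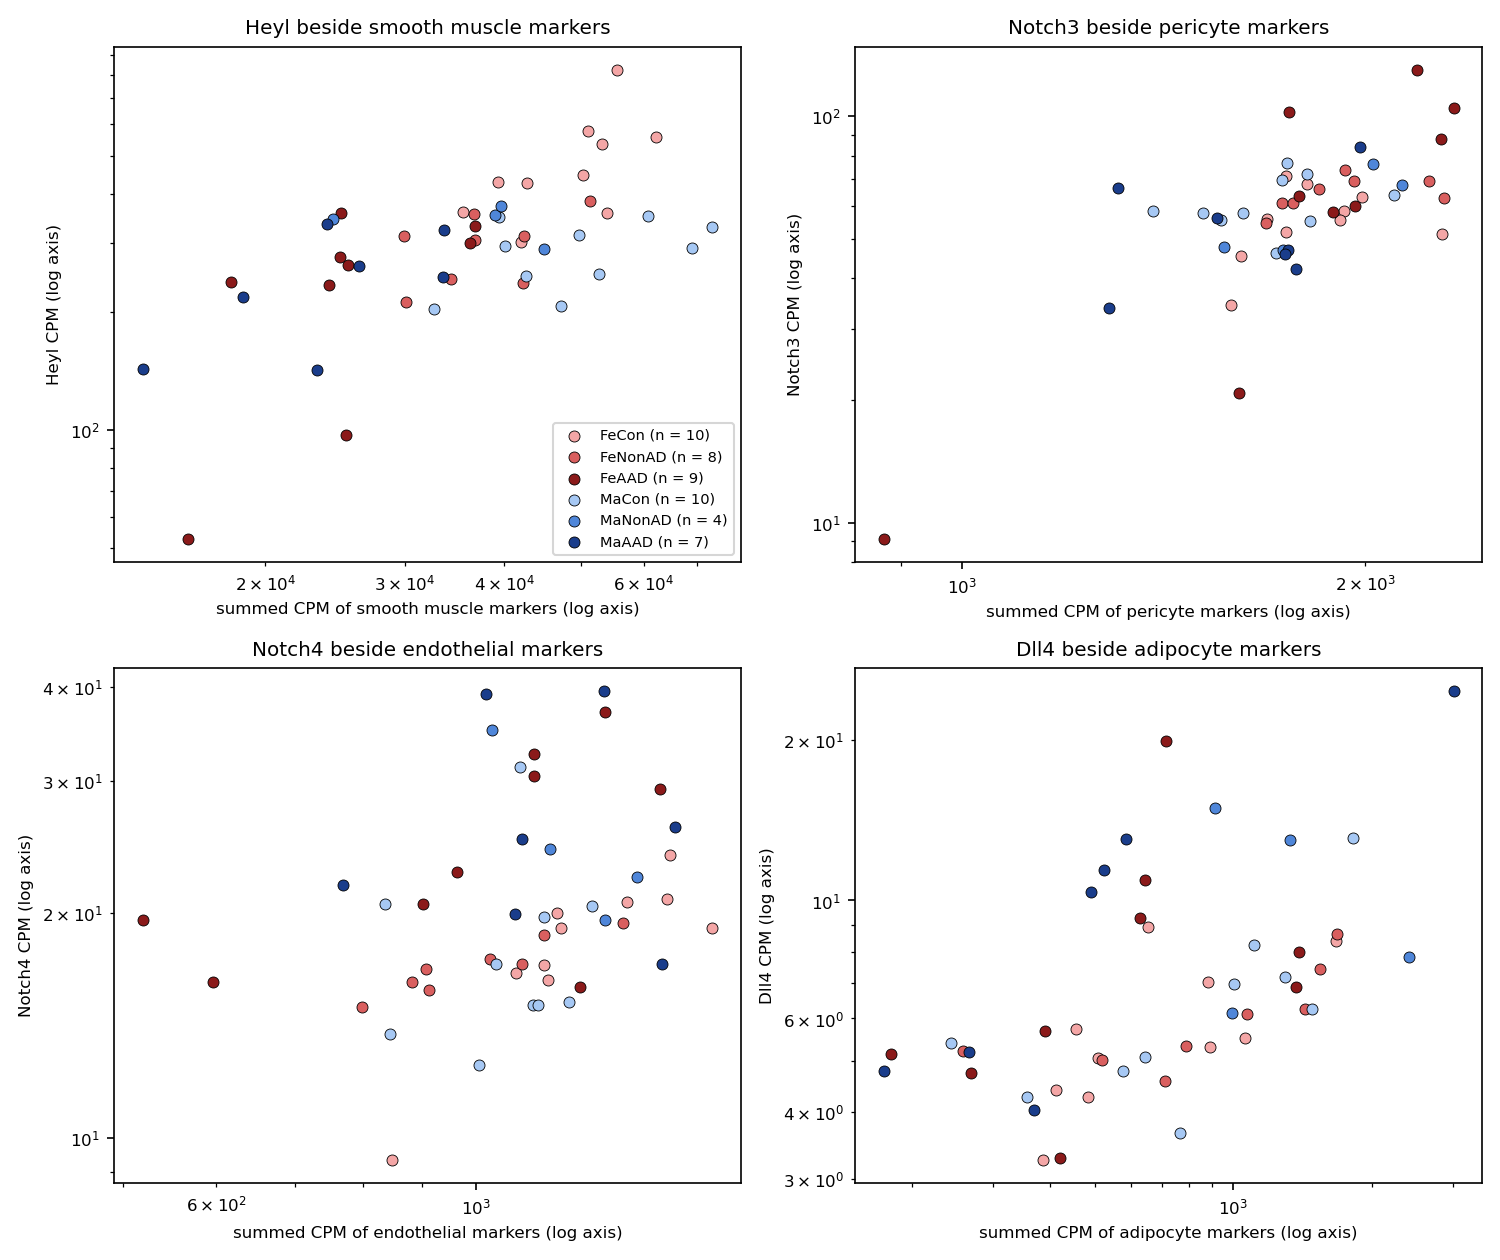
Level of Heyl, Notch3, Notch4 and Dll4 in CPM against the summed CPM of smooth muscle, pericyte, endothelial and adipocyte markers (log axes), 1 point per library, coloured by group. FeAAD5 lies at the low end of both axes for Notch3 (9.11 CPM, pericyte sum 874 CPM), and MaAAD1 has both the highest Dll4 (24.7 CPM) and the highest adipocyte sum (3012 CPM).

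Of the members that passed a test, Heyl lies on chromosome 4 (123233556 to 123249875, plus strand), Hey1 on chromosome 3 (8663359 to 8667256, minus strand) and Notch2 on chromosome 3 (98013527 to 98150361, plus strand) of GRCm38. Notch4 lies on chromosome 17 (34564268 to 34588503, plus strand) and Dll4 on chromosome 2 (119325784 to 119335962, plus strand) of GRCm38 in GENCODE M21. Because these 2 genes varied together, their RefSeq promoters (build GRCm38.p6, 250 bases before to 50 bases after the start, 5′ to 3′) are shown, chr17:34564045-34564344 for Notch4 and chr2:119325534-119325833 for Dll4, both plus strand. Both were searched on either strand for TGGGAA, the core of the RBPJ motif, which capitals would mark.
Notch4: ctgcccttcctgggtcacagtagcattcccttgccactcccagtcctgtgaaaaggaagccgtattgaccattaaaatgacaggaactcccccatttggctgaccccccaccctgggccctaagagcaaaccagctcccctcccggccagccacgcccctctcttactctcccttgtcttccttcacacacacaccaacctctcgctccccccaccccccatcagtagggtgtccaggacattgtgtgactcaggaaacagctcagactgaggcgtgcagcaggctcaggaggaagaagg
Dll4: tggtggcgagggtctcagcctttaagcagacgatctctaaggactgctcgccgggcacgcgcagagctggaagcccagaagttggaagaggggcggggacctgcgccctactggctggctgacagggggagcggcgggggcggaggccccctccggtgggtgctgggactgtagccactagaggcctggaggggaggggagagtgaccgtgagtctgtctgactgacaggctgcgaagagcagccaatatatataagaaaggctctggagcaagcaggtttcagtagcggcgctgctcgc
Neither window held these letters, nor did those of Notch1, Notch2, Notch3, Jag1 and Jag2, the other members with a RefSeq promoter at hand (0 of 7), while 25.6% of all 32851 promoters of the same length did. The target genes Hes1, Hey1 and Heyl had no such promoter at hand, so the search covered receptors and ligands only. All 7 windows held more G or C than the median of 52.7% over all promoters. The 25.6% was not matched for base composition. The windows of Notch4 and Dll4 also differed in base composition, since Notch4 had 5 CpG pairs and 58.3% G or C, and Dll4 17 CpG pairs and 63.7%.

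The rest of the pathway was described by a list of 44 other genes (ligands, proteases, gamma-secretase subunits, the nuclear complex, glycosyltransferases and furin, regulators and further targets), of which 40 were tested and 4 (Dlk2, Dll3, Hes5 and Hes7) had too few counts. In FeAAD against FeCon 7 of the 40 rose and 7 fell, where 44.4% of all genes passed, and in MaAAD against MaCon 6 rose and 5 fell, where 35% did. In FeNonAD against FeCon 3 rose and 5 fell, where 14.5% of all genes passed, and in FeAAD against FeNonAD 2 rose and 1 fell, where 18.2% did. In MaCon against FeCon 1 was higher and 7 were lower, where 14.3% of all genes passed. In MaNonAD against MaCon and MaAAD against MaNonAD 0 passed in edgeR, with 3 and 9 at an unadjusted p under 0.05. The share of all genes at that unadjusted threshold was not taken, so these 2 counts cannot be set against a background. Over these within-sex comparisons the median over the 40 genes lay between -0.11, in FeAAD against FeCon, and 0.00, in MaAAD against MaCon.

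Lfng passed in both sexes at an absolute log2 fold change above 1. It encodes the fringe glycosyltransferase that alters which ligands a Notch receptor answers to. Its mean rose from 11.6 ± 3.06 CPM in FeCon (SD, n = 10) to 24.7 ± 14.1 CPM in FeAAD (n = 9), a change of 1.08 (SE 0.20, edgeR adjusted p = 1.91e-05), and from 9.64 ± 1.40 CPM in MaCon (n = 10) to 29.0 ± 11.7 CPM in MaAAD (n = 7), a change of 1.59 (SE 0.21, edgeR adjusted p = 1.15e-07). It also rose by 1.08 in FeAAD over FeNonAD (adjusted p = 0.000275). The highest Lfng library of each AAD group, FeAAD5 with 59.6 CPM and MaAAD7 with 52.9 CPM, was the one with the highest macrophage sum, and the part of macrophages in this rise was not tested. Mfng, another fringe enzyme, rose by 0.59 in FeAAD and by 0.82 in MaAAD. Rfng, the remaining fringe enzyme, named here after its values were seen, went the other way in males, with a change of -0.46 in MaAAD (edgeR adjusted p = 0.00302), and had a value of -0.10 in FeAAD that did not pass.

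Of the genes that fell, Dtx1, an E3 ubiquitin ligase that regulates Notch, changed by -0.76 in FeNonAD (edgeR adjusted p = 0.0141) and by -1.09 in FeAAD against FeCon (edgeR adjusted p = 4.48e-05), and by -0.73 in MaAAD against MaCon (edgeR adjusted p = 0.0105). Its mean was 18.8 ± 5.86 CPM in FeCon, 11.1 ± 2.79 CPM in FeNonAD (n = 8) and 8.87 ± 3.81 CPM in FeAAD. Dner, a Notch ligand best known from neurons, changed by -1.13 in MaAAD against MaCon (adjusted p = 0.0105), at a mean of 38.6 counts per library. In FeNonAD, Maml3, a coactivator of the RBPJ complex, rose by 0.64 (adjusted p = 0.0272), and Aph1c, a gamma-secretase subunit, changed by -0.47 (adjusted p = 0.0473). Between FeAAD and FeNonAD, Nrarp, a Notch target that feeds back on the pathway, rose by 0.72 (adjusted p = 0.00678), and Mib2, a ligase that acts on Notch ligands, changed by -0.37 (adjusted p = 0.0319).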

How the data were processed

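Thoracic aorta RNA of 48 mice was sequenced strand-specifically, 1 library per mouse. The authors aligned reads with Bowtie2 and deposited expected counts per gene from RSEM 1.3.1 on GRCm39, per their processing notes. The deposited expected counts were rounded to whole numbers (4.99% of values were not whole, none of them a member's), although the tests had been laid out for counts. Genes with low counts were removed by edgeR's filter, which left 14431 of 18782, and 127 genes were at 0 throughout. One edgeR 4.0.16 quasi-likelihood fit over the 6 groups with TMM factors (0.874 to 1.08) gave every contrast in R 4.3.3, and was tested on simulated data. The median library held 15681334 counts. DESeq2 1.42.0, its size factors, no filter, the compared groups only, a replicate block and leaving out libraries were alternatives. Other pathway genes are named by the 3 largest absolute changes among those that passed, with a mean of at least 10 counts, in each within-sex comparison, and Dtx1 in males was added after its value was seen. The members and lists were chosen with earlier results of these data known. P-values measure the spread between mice, and the cages were few per group.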

Additional observations from a re-analysis of the deposited data

Results flagged for a closer look

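Of 60 sets of libraries (10 genes in 6 groups), 5 held 1 library that stood apart by Dixon's criterion on log2(CPM + 1), and chance gives about 1 in 20. Notch2 in MaAAD1 was 6.03 (64.2 CPM), with the next library at 115 CPM. Notch4 in FeCon2 was 3.37 (9.34 CPM), with the next at 16.2 CPM. Jag2 in MaCon2 was 4.47 (21.2 CPM), above the next at 15.0 CPM, and Jag2 in FeCon7 was 3.16 (7.97 CPM), below the next at 11.2 CPM. Hes1 in FeNonAD5 was 3.43 (9.78 CPM), with the next at 17.0 CPM.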

How the results depend on the processing

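DESeq2 and its size factors changed no call. With the replicate number as a block, 0 members passed in FeNonAD against FeCon (Heyl adjusted p = 0.0689), and the block changed no other call. The numbers showed no steady pairing of the mice. Deviations of same-numbered libraries correlated at more than 0.1 throughout in 0 of 15 pairs of groups, with a median r of 0.04 (from -0.53 to 0.47). A single low value is enough to fail that rule, so it does not settle whether some numbers shared a handling step. With only the compared groups fitted, 1 member passed for the sex difference in the NonAD response. With 1 library left out, an alternative planned only for the MaNonAD libraries, FeNonAD8 and FeCon10 and extended to the others after seeing the data, the members that passed numbered 0 to 2 in FeNonAD against FeCon, 2 to 4 in FeAAD against FeCon, 1 to 2 in MaAAD against MaCon, 0 to 1 in FeAAD against FeNonAD and 1 to 2 in MaCon against FeCon, and 0 in the other 7 comparisons. The 9 calls kept their direction under the alternatives run, while 36 of the 111 values that had not passed changed sign under at least 1: Jag1 in MaNonAD against MaCon was 0.08 and lay between -0.10 and 0.24 with 1 library left out. The cause of these shifts was not tested. The comparisons that include MaNonAD rest on only 4 mice in that group.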
